A study of Mus musculus with 3 samples.

Results

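The uptake and storage of lipid was followed through 8 genes, Apoe, Lpl, Cd36, Fabp4, Fabp5, Angptl4, Pltp and Plin2, in single cells of mouse abdominal skin dermis. The genes were picked by symbol with earlier results of these data known, so counts of members set beside all genes are a description. All 8 were found among the 28693 genes of the deposited count tables. There were 3 libraries with 1 library per stage. NP came from non-pregnant mice that had tamoxifen for 3 days and were sampled 48 days later, dpc16 from gestation day 16 and dpp42 from day 42 after birth, the last 2 with tamoxifen given during pregnancy. All mice were C57BL/6 of 8 to 12 weeks and carried Col1a2creERT2, a tamoxifen-inducible recombinase under a collagen gene promoter, together with R26H2B EGFP, a nuclear reporter. The number of mice behind each library is not given in the sources used here. Subcutaneous fat had been removed, so the skin's main store of lipid was outside the samples.

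Circulating lipid travels in particles that carry apolipoproteins such as ApoE. Lipoprotein lipase, the product of Lpl, frees fatty acids from these particles on the capillary wall, where the endothelial protein GPIHBP1 holds it, and ANGPTL4 inhibits it. CD36 helps fatty acids enter the cell, FABP4 and FABP5 carry them through the cytosol, and perilipin 2, the product of Plin2, coats the droplets in which lipid is kept. PLTP, the phospholipid transfer protein, moves phospholipid between lipoprotein particles. In skin, sebocytes of the sebaceous gland fill with lipid and burst to release it as sebum, and many adult capillary beds carry Fabp4 and Cd36 as endothelial genes.

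The 3 libraries kept 1289, 3652 and 1081 cells for NP, dpc16 and dpp42, with a median of 3119, 4300.5 and 3252 UMIs (unique molecular identifiers, counts of captured RNA molecules). Between pairs of libraries 1 to 6 cell barcodes were shared. Cells were clustered without the 8 genes and grouped by marker genes into fibroblast-like (87, 1081 and 103 cells in NP, dpc16 and dpp42), blood endothelial-like (41, 128 and 89), lymphatic endothelial-like (19, 141 and 33), sebocyte-like (169, 554 and 182) and other epithelial-like cells (892, 1228 and 607). Sebocyte-like and other epithelial-like cells made up most of the NP and dpp42 libraries although the tissue is labelled dermis. A further cluster of 23, 232 and 16 cells carried epithelial markers beside haemoglobin and was left unnamed. Levels are given as CPM, the UMIs of a gene per 1000000 UMIs of the class, with exact 95% intervals that cover counting error only. With 1 library per stage there is no replicate and no test. A gene is called higher or lower where the ratio of its CPM is at least 1.5 either way, the interval excludes 1, and the gene has 10 CPM in 1 library and 20 UMIs over both. Stage, mouse and library preparation cannot be told apart. The stress gene Hspa1a, a heat shock protein, was also highest in dpc16 in each of these 5 classes, at 1438, 4144 and 1230 CPM in NP, dpc16 and dpp42 for fibroblast-like cells. Its part in the results was not tested.

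On GRCm38 the GENCODE M21 annotation places Apoe at chr7:19696109-19699188, Lpl at chr8:68880491-68907448, Cd36 at chr5:17781690-17888801, Angptl4 at chr17:33773750-33781830, Pltp at chr2:164839518-164857711 and Plin2 at chr4:86648386-86670060. Fabp4 (chr3:10204088-10208576) and Fabp5 (chr3:10012548-10016607) lie on the same chromosome and face opposite ways. Of the 8 protein-coding genes, Pltp alone overlaps another annotated gene, Ctsa, on the other strand. RefSeq promoter windows (GRCm38.p6, 250 bases before to 50 after an annotated start) were found for Apoe, Cd36, Plin2 and Pltp. Those of Cd36 (chr5:17835847-17836146, minus strand) and Pltp (chr2:164857659-164857958, minus strand) are shown because their levels stood on opposite sides of NP in dpc16 blood endothelial-like cells. The Cd36 window lies inside the annotated gene, away from its upstream end, and which start these cells used was not tested. Capitals mark matches to GGGCGG (the GC box) and TATAAA (the TATA box) on either strand, written 5′ to 3′.
Cd36: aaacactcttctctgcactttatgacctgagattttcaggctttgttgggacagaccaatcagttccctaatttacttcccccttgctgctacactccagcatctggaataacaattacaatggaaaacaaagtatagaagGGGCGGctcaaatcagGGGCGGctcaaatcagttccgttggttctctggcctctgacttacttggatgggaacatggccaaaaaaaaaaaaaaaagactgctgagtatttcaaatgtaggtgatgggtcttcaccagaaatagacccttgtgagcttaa
Pltp: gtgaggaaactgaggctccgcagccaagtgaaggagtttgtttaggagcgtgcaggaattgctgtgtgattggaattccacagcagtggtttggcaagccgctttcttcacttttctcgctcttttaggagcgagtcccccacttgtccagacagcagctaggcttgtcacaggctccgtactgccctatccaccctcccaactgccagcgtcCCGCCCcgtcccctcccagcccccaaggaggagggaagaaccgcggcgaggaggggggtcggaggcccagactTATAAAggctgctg
The Cd36 window held GGGCGG 109 and 93 bases before the start, inside a 16-base stretch repeated without a gap (aggggcggctcaaatc). The Pltp window held GGGCGG on the minus strand 37 bases before the start and TATAAA 37 bases after it. Over all 32851 promoter windows, 35.7% held GGGCGG and 13.6% held TATAAA. A pair of AGGTCA copies in the same direction with 1 base between them, the form bound by PPAR and RXR receptors, was on either strand in 0 of the 6 windows of these 4 genes and in 0.0396% of all windows.

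Blood endothelial-like cells held most of the Fabp4 UMIs of each library and differed in both Fabp4 and Cd36 between stages. Fabp4 had 480 CPM in NP (364 to 620.04), 10117 in dpc16 (9871 to 10368) and 4357 in dpp42 (4127 to 4596). The 3 intervals were apart, with dpc16 21.1 times NP (16.3 to 27.8) and dpp42 9.08 times NP (6.98 to 12.0). Cd36 followed the same order, at 190 CPM in NP (121 to 285), 861 in dpc16 (791 to 937) and 507 in dpp42 (431 to 593). Its ratio to NP was 4.53 (2.99 to 7.21) in dpc16 and 2.67 (1.71 to 4.33) in dpp42. Thus the fatty acid carrier and the membrane transporter were both highest in the pregnant library and still above NP at day 42 after birth.

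Fabp4 and Cd36 were carried by a subset of the cells. A UMI of Fabp4 was found in 6 of 41 cells in NP (14.6%, Clopper-Pearson interval 5.57 to 29.2), 72 of 128 in dpc16 (56.3%, 47.2 to 65.0) and 30 of 89 in dpp42 (33.7%, 24.03 to 44.5). With each cell thinned to 1000 UMIs, which left no cell out, these shares were 12.2, 50.8 and 29.2%. In dpc16 fibroblast-like cells, which are not known for Fabp4, 9.25% held a UMI at a median depth of 4117 UMIs, against 4160 in the endothelial cells. At least 5 Fabp4 UMIs were found in 4, 64 and 25 endothelial cells of NP, dpc16 and dpp42, or 9.76, 50 and 28.1%. The highest cell held 84.2 Fabp4 UMIs per 10000 in NP, 933 in dpc16 and 628 in dpp42. In dpc16 the 10 cells with most Fabp4 held 47.2% of its UMIs, and in dpp42 64.8%. In NP all 58 UMIs lay in the 6 cells, and the highest of these held 27 and 17. The NP base of the Fabp4 ratios thus rests on few cells, which the intervals for counting error do not cover. Cd36 was found in 10, 83 and 38 cells, and 3, 49 and 22 cells held both genes.

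**Figure D1:**
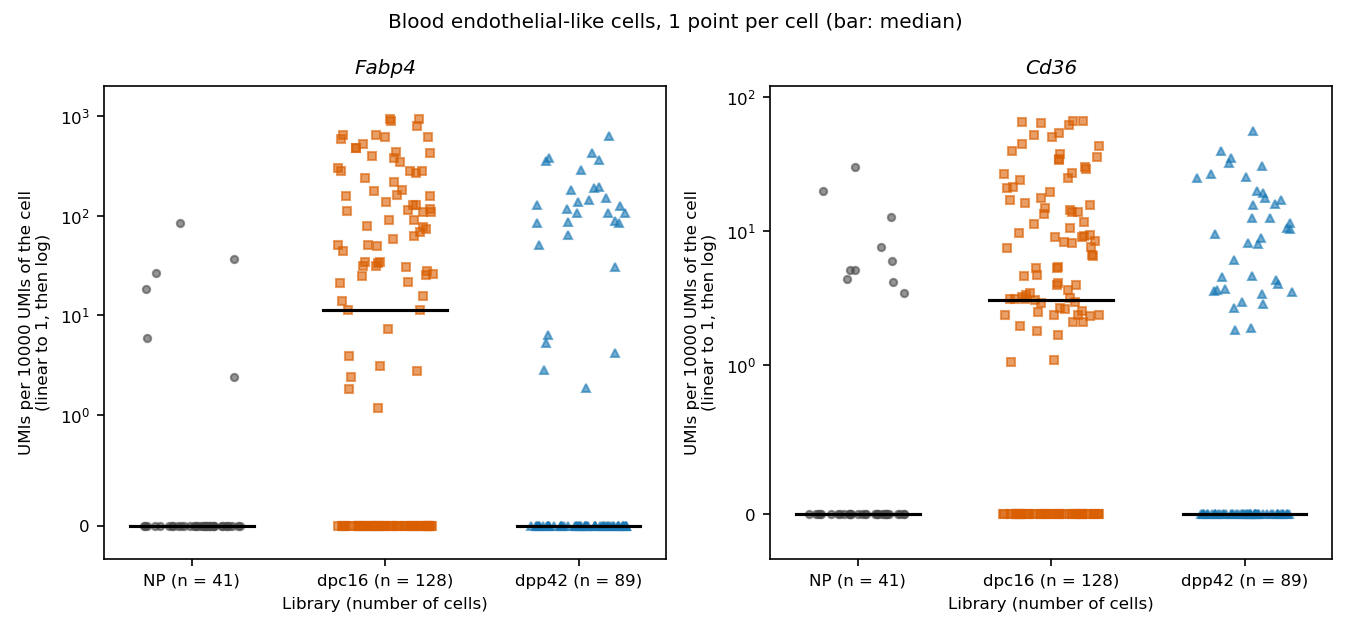
UMIs of Fabp4 (left) and Cd36 (right) per 10000 UMIs in each blood endothelial-like cell, by library, on an axis linear to 1 and logarithmic above it; each point is a cell and the bar is the median. The Fabp4 median was 0 in NP and dpp42 and 11.3 in dpc16, and all 3 libraries had cells at 0.

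Selp and Ackr1 mark venular cells of this class. A UMI of either gene was found in 2, 25 and 14 cells of NP, dpc16 and dpp42, or 4.88, 19.5 and 15.7%. The median depth of the class ran in the same order, at 2450, 4160 and 3101 UMIs. These shares were not thinned to equal depth, so a difference in the share of venular cells was not tested. A venular cell without a UMI of either gene would be missed. The cells with such a UMI were rich in Fabp4, with 17435 CPM in dpc16 and 16528 in dpp42, and 0 UMIs in the 2 NP cells. In the cells without Selp or Ackr1 UMIs, a set chosen after the data were seen, Fabp4 stood at 499, 7906 and 2260 CPM. The ratio to NP was then 15.8 (12.2 to 20.9) in dpc16 and 4.53 (3.45 to 6.04) in dpp42, against 9.08 in dpp42 for the whole class. Cd36 in these cells was 4.37 (2.85 to 7.05) and 2.42 (1.53 to 4.004) times NP.

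The other members differed less in blood endothelial-like cells. Angptl4, the lipase inhibitor, stood at 108 CPM in NP, 371 in dpc16 and 142 in dpp42. It was 3.46 times NP (1.98 to 6.59) in dpc16, and the dpp42 interval included 1 (1.32, 0.70 to 2.67). Apoe, the lipoprotein ligand, had 835, 1374 and 830.0 CPM, with dpc16 1.64 times NP (1.34 to 2.04) and dpp42 0.99 times NP (0.79 to 1.26). Other epithelial-like cells held 55.2, 43.8 and 55.5% of the Apoe UMIs of NP, dpc16 and dpp42. The most widespread of 4 epithelial markers reached 12.0, 6.49 and 8.18% of its epithelial level in blood endothelial-like cells. The part of such RNA in these Apoe levels was not tested. Without the Selp or Ackr1 cells the dpc16 ratio of Apoe was 1.45 (1.16 to 1.82), under the size rule. Pltp went the other way. It stood at 256 CPM in NP (174 to 364), 139 in dpc16 (112 to 171) and 258 in dpp42 (205 to 322), which put dpc16 at 0.54 times NP (0.36 to 0.85) and dpp42 at 1.01 times NP (0.66 to 1.58). With classes taken cell by cell from markers the dpc16 call ended, at a log2 ratio of -0.61 against -0.90. Fabp5 was 2.04 times NP (1.13 to 4.05) in dpc16, and its 202 CPM there equalled 2.82% of the sebocyte-like level, within the 2.90% that the most widespread of 4 sebocyte markers reached in the same cells. Without the Selp or Ackr1 cells the ratio of Fabp5 was 1.42 (0.76 to 2.87), which ended its call. Plin2 stood at 82.7, 130 and 100 CPM and was not called in either comparison with NP. Lpl itself was close to absent, with 3, 15 and 4 UMIs.

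Of the 7 members measured in blood endothelial-like cells, 5 were higher and 1 lower in dpc16 than in NP, and the calls of Apoe and Fabp5 ended without the Selp or Ackr1 cells. Over all 4440 genes measured there, 5.72% were higher and 10.2% lower. The median log2 ratio was 0.97 for the members and -0.14 for all measured genes. In dpp42 against NP, 2 of 7 members were higher and 0 lower, beside 2.62% higher and 3.44% lower over all measured genes. In dpp42 against dpc16, 5 of 7 members were lower (Apoe, Cd36, Fabp4, Fabp5 and Angptl4, at 0.38 to 0.60 times) and Pltp was higher at 1.86 times (1.35 to 2.54), beside 8.38% lower and 13.1% higher over all measured genes. Adipocyte markers were nearly silent in these cells, with 3 of 7 genes detected in dpc16 at a summed 4.74 CPM, none of the 7 in NP or dpp42, and Adipoq at 0 in all 3 libraries. Haemoglobin and other erythroid markers summed to 8.27, 623 and 6692 CPM, and their part in the ratios was not tested.

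Lymphatic endothelial-like cells rest on 19 NP cells. Fabp4 had 0 UMIs in NP, 1131 CPM (1056 to 1211) in dpc16 and 33.7 (10.96 to 78.7) in dpp42. Against a floor of 3 counts over the NP class, dpc16 was at least 25.2-fold higher. The dpc16 level was 11.2% of that in blood endothelial-like cells of the same library, while the endothelial genes Plvap, Flt1 and Emcn stood at 6.45, 0.38 and 61.1%. The part of blood vessel RNA in this Fabp4 level was not tested. Cd36 was at least 1.93-fold higher in dpc16 than in NP, and Angptl4 was 5.98 times NP (1.62 to 49.9, from 2 NP UMIs). Apoe had 1213 CPM in NP (963 to 1508), 1781 in dpc16 (1686 to 1880) and 283 in dpp42 (204 to 383), so that dpp42 stood at 0.23 times NP (0.16 to 0.34). Epithelial markers in the same cells were also lowest at dpp42, with 14, 15 and 15 of 15 genes detected at a summed 5647, 4296 and 1404 CPM in NP, dpc16 and dpp42. The median free RNA share of 4 of them was 14.1, 4.93 and 2.27% of the epithelial level, and their part in the Apoe ratio was not tested. In dpc16 against NP, 3 of 6 measured members were higher and 0 lower, beside 4.59 and 6.06% of all measured genes. In dpp42 against NP only Apoe could be measured and it was lower, beside 5.13% higher and 2.97% lower over all measured genes. In dpp42 against dpc16, 4 of 7 members were lower (Apoe, Cd36, Fabp4 and Angptl4, at 0.03 to 0.31 times) and 0 higher, beside 7.09 and 9.95% of all measured genes. Fabp5 (44.9, 71.9 and 33.7 CPM in NP, dpc16 and dpp42) and Plin2 (105, 48.8 and 47.2 CPM) were called in neither direction against NP or could not be measured. Pltp had no UMI in NP and dpp42 and 8.14 CPM in dpc16.

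Fibroblast-like cells showed a broad difference at dpc16. Apoe, which many cells secrete, stood at 581 CPM in NP (488 to 686), 3883 in dpc16 (3828 to 3940) and 1501 in dpp42 (1356 to 1656). Thus dpc16 was 6.69 times NP (5.66 to 7.96) and dpp42 2.58 times NP (2.12 to 3.16), and the 3 intervals did not overlap. The NP level was 5.34% of the sebocyte-like one, within the 5.52% reached by the most widespread sebocyte marker. For NP, sebocyte RNA outside the cells could not be told apart from a level of their own. Lpl, which parenchymal cells make for use on vessels, had 3 UMIs in NP, or 12.5 CPM (2.59 to 36.6). In dpc16 it had 190 CPM (178 to 203) and in dpp42 57.1 CPM (31.98 to 94.2). The ratio to NP was 15.2 (5.18 to 73.8) in dpc16. Angptl4 had 29.3, 170 and 53.3 CPM and was 5.80 times NP (2.80 to 14.5) in dpc16.

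Pltp in fibroblast-like cells had 50.1 CPM in NP (25.9 to 87.6), 120 in dpc16 (110 to 130) and 34.3 in dpp42 (15.7 to 65.1), so that dpc16 was 2.39 times NP (1.36 to 4.65), on the other side of NP from the endothelial value. Plin2 stood at 20.9, 83.2 and 38.1 CPM, 3.98 times NP (1.69 to 12.3) in dpc16. That dpc16 level was 5.13% of the sebocyte-like one, within the 12.3% reached by the most widespread sebocyte marker, so sebocyte RNA outside the cells could not be told apart from a level of their own. Fabp4 had no UMI in NP. Its 29.7 CPM in dpc16 was at least 2.37-fold higher than the NP floor, but 0.29% of the blood endothelial-like level, where endothelial markers reached 0.49%. Fabp5 (54.3, 92.8 and 64.7 CPM) was not called, and Cd36 had 0, 29 and 1 UMIs.

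Of 7 measured members in fibroblast-like cells, 6 were higher and 0 lower in dpc16 than in NP, beside 6.41% higher and 15.1% lower over 7853 genes. In dpc16, 4 of the 6 stood above the range of the free RNA markers. The median log2 ratio of the measured members was 2.44, against -0.26 for all measured genes. In dpp42 against NP, 1 of 4 measured members (Apoe) was higher and 0 lower, beside 8.77% higher and 7.88% lower over all measured genes. The Apoe call ended with clusters at resolution 2 and with each library clustered alone, at log2 ratios of 0.54 and 0.52 against 1.37. The NP class held 115 and 112 cells in these settings, in place of 87. The same NP class is the base of the dpc16 ratios. In dpp42 against dpc16, 5 of 7 were lower (Apoe, Lpl, Angptl4, Pltp and Plin2, at 0.29 to 0.46 times) and 0 higher, beside 4.84% lower and 19.1% higher.

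Most NP cells of the class were in clusters 5 and 7 (53 and 27 cells). The dpc16 cells were spread over clusters 5, 6, 7 and 27 (372, 279, 206 and 224 cells), and cluster 7 held 62 of the 103 dpp42 cells. Cluster 5, led by Ctla2a, Gpx3 and Tnfaip6, had Lpl at 13.1 CPM in NP and 349 in dpc16, and Apoe at 706, 5260 and 2847 CPM in NP, dpc16 and dpp42. At resolution 2 the cells of this kind were split between a cluster led by Ccl2 and Ccl7 (51 NP and 146 dpc16 cells) and one led by Ctla2a and Gpx3 (2 NP and 229 dpc16 cells), so cluster 5 holds both kinds in different shares. Cluster 7, led by Mmp3, Igfbp2 and Lum, had Apoe at 7.34 times NP (4.83 to 11.7) in dpc16, close to the 7.45 times (6.17 to 9.10) of cluster 5. Lpl stayed low in cluster 7, with 0 UMIs in NP and 15.2 CPM in dpc16. Pltp was 3.14 times NP (1.74 to 6.35) in cluster 5. In cluster 7 it stood at 14.1 CPM in dpc16 and 14.4 in NP, from 13 UMIs and 1 UMI. The Apoe difference was therefore seen in both clusters. That of Lpl and Pltp was seen in cluster 5, and the NP counts in cluster 7 were too few to show whether it was absent there. Of the other clusters, Lpl had 173 CPM in cluster 6 and 84.4 in cluster 27 of dpc16. Adipocyte markers summed to 0, 1.25 and 0 CPM over the fibroblast-like class, with Adipoq at 0.

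**Figure D2:**
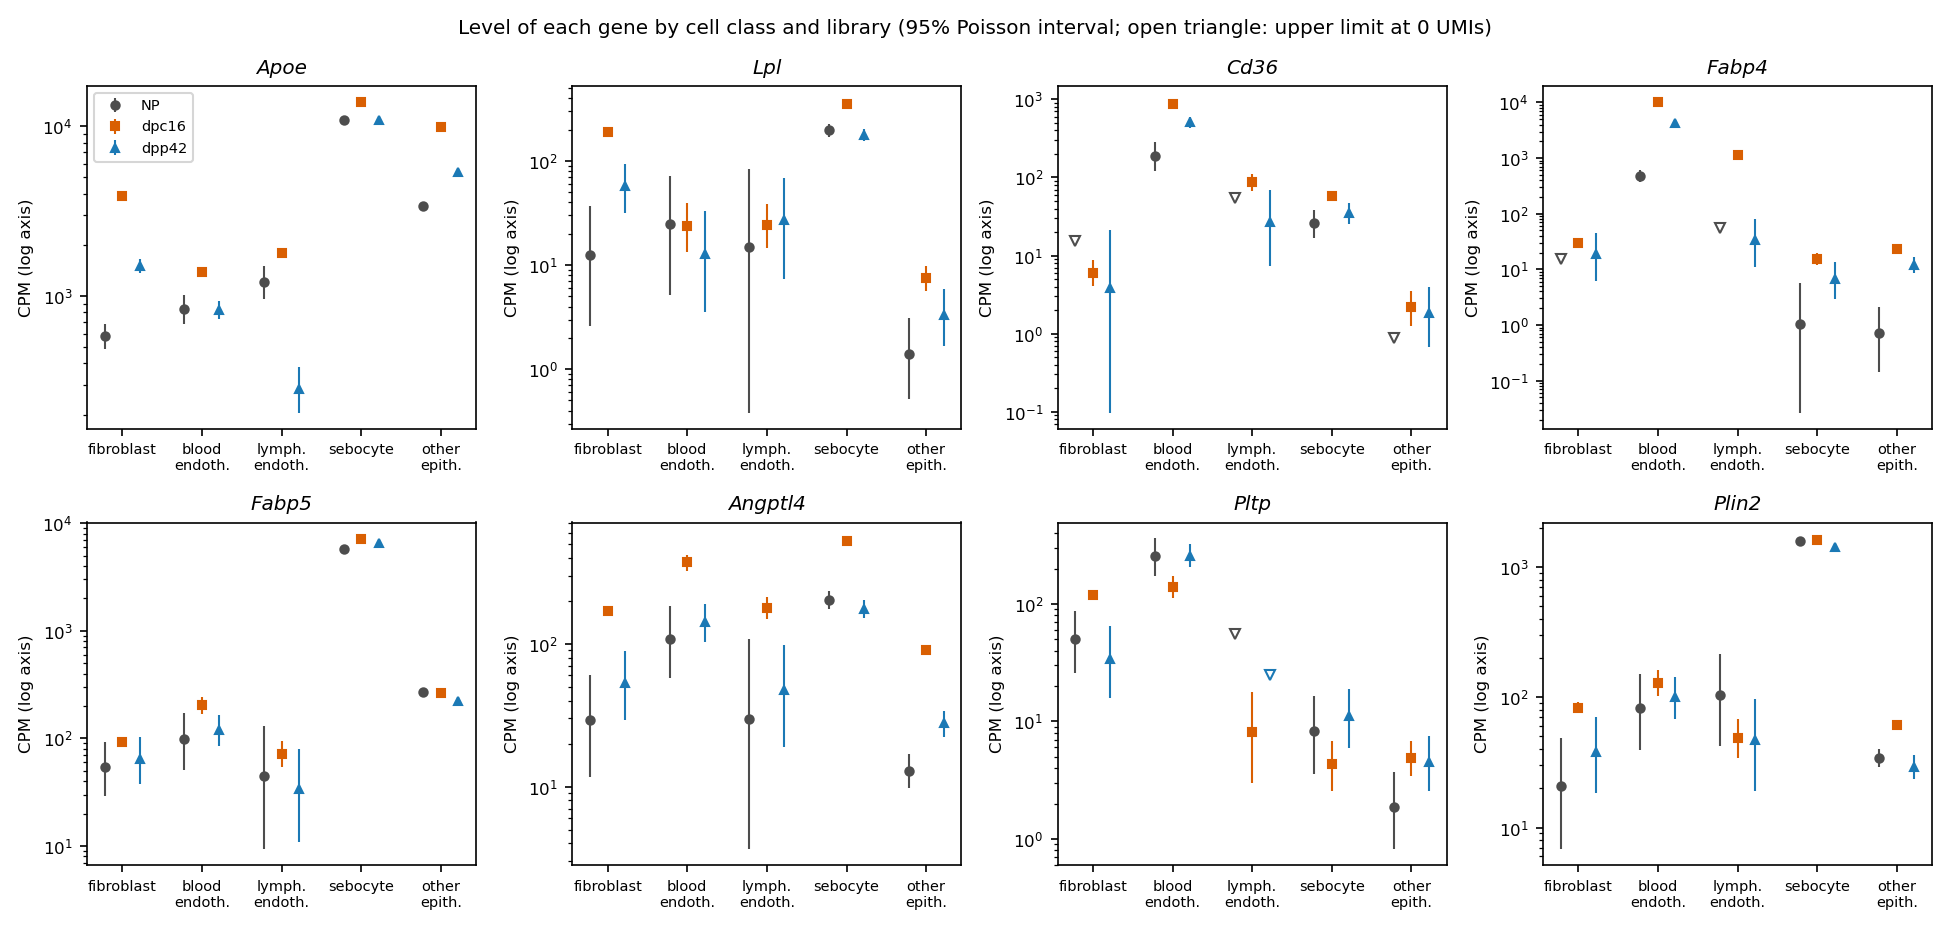
Level of each of the 8 genes in CPM (log axis) by cell class and library, with exact 95% Poisson intervals; all class names are marker-based, and open triangles mark the upper limit where no UMI was found. Fabp4 and Cd36 are highest in blood endothelial-like cells and Fabp5 and Plin2 in sebocyte-like cells in each library.

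Sebocyte-like cells held most of the Fabp5 and Plin2 UMIs of each library: 82.4, 90.7 and 90.3% of Fabp5 and 88.4, 83.2 and 88.5% of Plin2 in NP, dpc16 and dpp42, from 13.1, 15.2 and 16.8% of the cells. Summed over the class, both were close between stages. Fabp5 stood at 5804 CPM in NP (5653 to 5958), 7180 in dpc16 (7099 to 7262) and 6488 in dpp42 (6343 to 6635), and Plin2 at 1589, 1621 and 1429. Apoe was also near level, at 10884, 13826 and 10897 CPM. The genes of lipase activity and uptake differed more. Lpl stood at 197, 355 and 179 CPM, 1.80 times NP (1.55 to 2.11) in dpc16. Angptl4 stood at 202, 528 and 176 CPM, 2.61 times NP (2.25 to 3.04). Cd36 stood at 25.9, 58.5 and 34.9 CPM, 2.26 times NP (1.49 to 3.56). Fabp4 had 1, 64 and 8 UMIs, and its dpc16 level was 0.15% of the blood endothelial-like one, within the range of endothelial markers.

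In dpc16 against NP, 4 of 7 measured members were higher and 0 lower in sebocyte-like cells, beside 6.97% higher and 14.8% lower over all 7214 measured genes. The median log2 ratio of the members was 0.85, against -0.16 for all measured genes. With Fabp4 left aside as within the free RNA range, 3 remained. In dpp42 against NP, 0 of 7 were higher and 0 lower, beside 3.08 and 2.47% of all measured genes. The members' ratios there ran from 0.87 to 1.35. In dpp42 against dpc16, 4 of 8 were lower (Lpl, Cd36, Fabp4 and Angptl4, at 0.33 to 0.60 times) and Pltp was higher at 2.55 times (1.15 to 5.50, 13 and 18 UMIs), beside 7.58% lower and 17.9% higher. The median mitochondrial share of UMIs in this class was 5.51, 6.42 and 5.61%. With a limit of 5% in place of 10%, 73, 124 and 68 of these cells remained, 1 member was called in dpc16 against NP, and Lpl stood at a log2 ratio of -0.09. With each cell thinned to 1000 UMIs, which gives every cell the same weight, 1 member was called as well.

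The 5 sebocyte-like clusters showed what the class sums cover. In order of their summed sebocyte markers, at 2252, 2872, 9691, 28569 and 45639 CPM over all libraries, they were clusters 8, 13, 12, 14 and 24. Cluster 8 was led by cell division genes and the last by Elovl4, Scd3 and Awat1. The class as a whole summed to 23501 CPM of sebocyte markers in NP, 13452 in dpc16 and 25831 in dpp42. Within clusters the sum was lower in dpc16 too, at 36984, 23395 and 37967 CPM in cluster 14. Along the order Fabp5 went from 357 and 291 CPM in the first 2 clusters to 2672, 12403 and 18099. Plin2 peaked in the middle, at 802, 1084, 2374, 1756 and 1185 CPM, and Apoe did too, at 13071, 15505, 17281, 10684 and 3081. Angptl4 was highest in cluster 13 at 690.1 CPM and lowest in cluster 24 at 99.0.

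Within the clusters Fabp5 was higher in dpc16 than in NP each time: 5.84 times in cluster 8 (3.12 to 12.3), 4.01 in cluster 13 (2.40 to 7.24), 2.50 in cluster 12 (2.19 to 2.86), 1.35 in cluster 14 (1.31 to 1.401) and 1.74 in cluster 24 (1.63 to 1.85). The class sum gave 1.24 (1.20 to 1.27). In dpp42 the same clusters stood at 0.97, 1.09, 0.63, 0.94 and 1.19 times NP. Angptl4 was likewise higher in dpc16 in all 5, at 1.76 to 5.06 times NP with intervals above 1. Lpl was higher mainly in cluster 14, at 2.41 times NP (1.98 to 2.95), where most of its UMIs lay, while clusters 12 and 13 stood at 0.91 and 0.79 times with intervals that included 1. Cd36 UMIs in NP sebocyte-like cells were in clusters 14 and 24 alone, 17 and 8 of them, and the level was 2.88 times NP (1.75 to 5.03) in cluster 14 of dpc16. Plin2 stood at 0.68 times NP (0.55 to 0.84) in cluster 8, at 1.56 times (1.21 to 2.03) in cluster 24, and at 0.99 to 1.05 times in the other clusters.

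**Figure D3:**
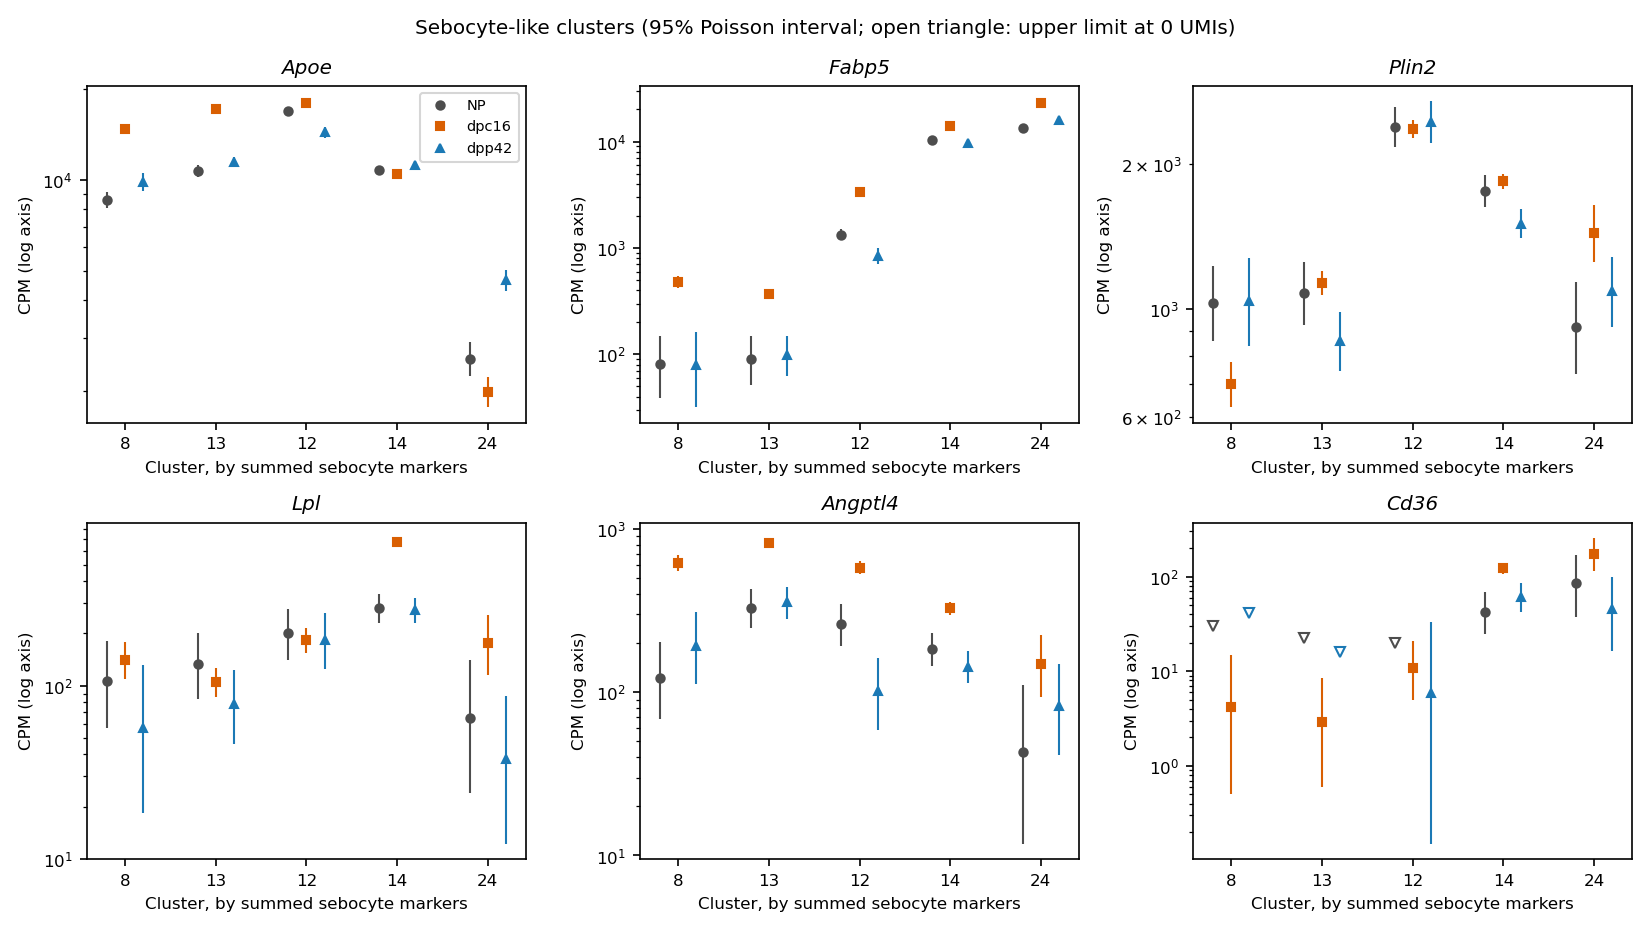
Levels in CPM (log axis) of 6 genes in the 5 sebocyte-like clusters, ordered by summed sebocyte markers, in the 3 libraries, with exact 95% Poisson intervals and open triangles for upper limits at 0 UMIs. Fabp5 is higher in clusters 12, 14 and 24 than in clusters 8 and 13 in each library, and lies highest in dpc16 in all 5 clusters, while Plin2 peaks in cluster 12.

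Other epithelial-like cells, mostly keratinocytes of epidermis and hair follicle by their keratins, had Apoe at 3363 CPM in NP (3308 to 3419), 9848 in dpc16 (9777 to 9920) and 5327 in dpp42 (5249 to 5406). The ratios to NP were 2.93 (2.88 to 2.98) and 1.58 (1.55 to 1.62). Cluster 19, led by Pinlyp, Krt6a, Gpx2 and Krt75, weighed on these sums. It held 4, 62 and 44 cells and had Apoe at 70344 CPM in dpc16 and 40245 in dpp42, or 25.7 and 38.4% of the Apoe UMIs of the class from 3.60 and 5.08% of its UMIs. Without it, a choice made after the data were seen, Apoe stood at 3364, 7587 and 3457 CPM, which left dpc16 above NP and ended the dpp42 call. In the 10 other epithelial-like clusters with at least 10 cells in both libraries, Apoe was above NP in 9 in dpc16, by 3.86 times in cluster 4, and in 4 in dpp42.

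Angptl4 in other epithelial-like cells stood at 12.9 CPM in NP (9.75 to 16.9), 89.8 in dpc16 (83.1 to 96.9) and 27.8 in dpp42 (22.4 to 34.1). It was 6.93 times NP (5.26 to 9.31) in dpc16 and 2.15 times NP (1.52 to 3.05) in dpp42, and it was above NP in 10 of 10 clusters in dpc16. Its highest level was in cluster 4, led by Nppc and Sgk1 and holding the follicle gene Lgr5, at 90.9, 701 and 181 CPM. Plin2 stood at 34.4, 61.3 and 29.3 CPM, 1.78 times NP (1.48 to 2.16) in dpc16. Fabp5 was nearly level at 271, 265 and 224 CPM. Fabp4 had 3, 174 and 40 UMIs, 33.5 times NP (11.3 to 164) in dpc16 but 0.23% of the blood endothelial-like level, just above the 0.18% reached by endothelial markers. In dpp42 its share of 0.28% was within their range of up to 0.66%.

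Of 5 measured members in other epithelial-like cells, 4 were higher and 0 lower in dpc16 than in NP, beside 8.45% higher and 22.9% lower over all measured genes. The median log2 ratio was 1.55 for the members and -0.19 for all measured genes. In dpp42 against NP 3 of 5 were higher and 0 lower, beside 4.59 and 2.81%. In dpp42 against dpc16 4 of 5 were lower (Apoe, Fabp4, Angptl4 and Plin2, at 0.31 to 0.54 times) and 0 higher, beside 8.31 and 24.5%.

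**Figure D4:**
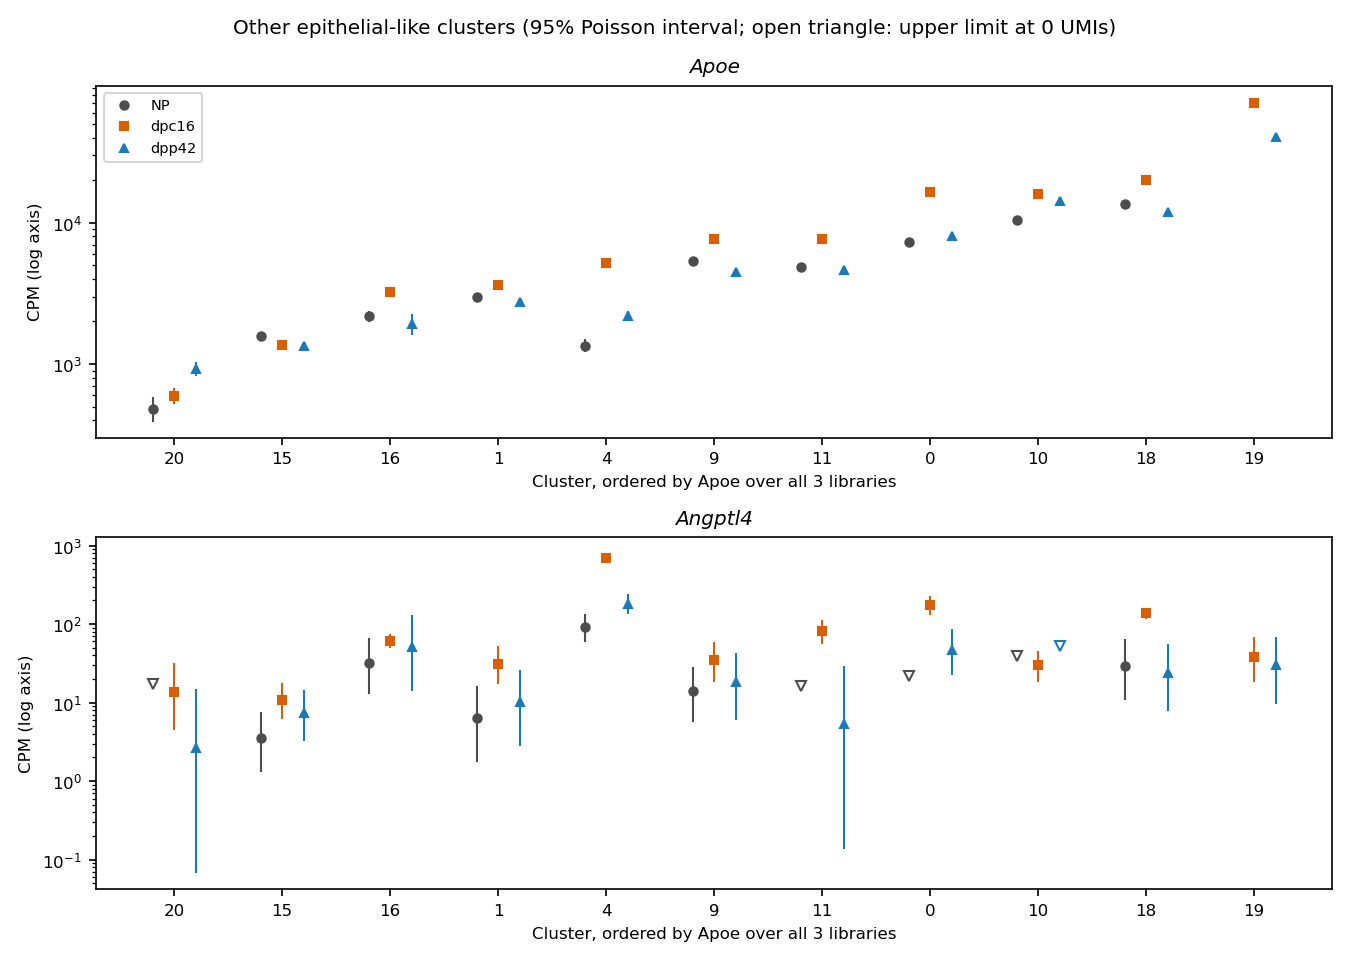
Apoe (top) and Angptl4 (bottom) in CPM (log axes) in the other epithelial-like clusters, ordered by Apoe over the 3 libraries, with exact 95% Poisson intervals and open triangles for upper limits at 0 UMIs. Cluster 19 stands above the other clusters for Apoe and is not drawn for NP, where it held 4 cells, and cluster 4 stands highest for Angptl4.

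**Figure D5:**
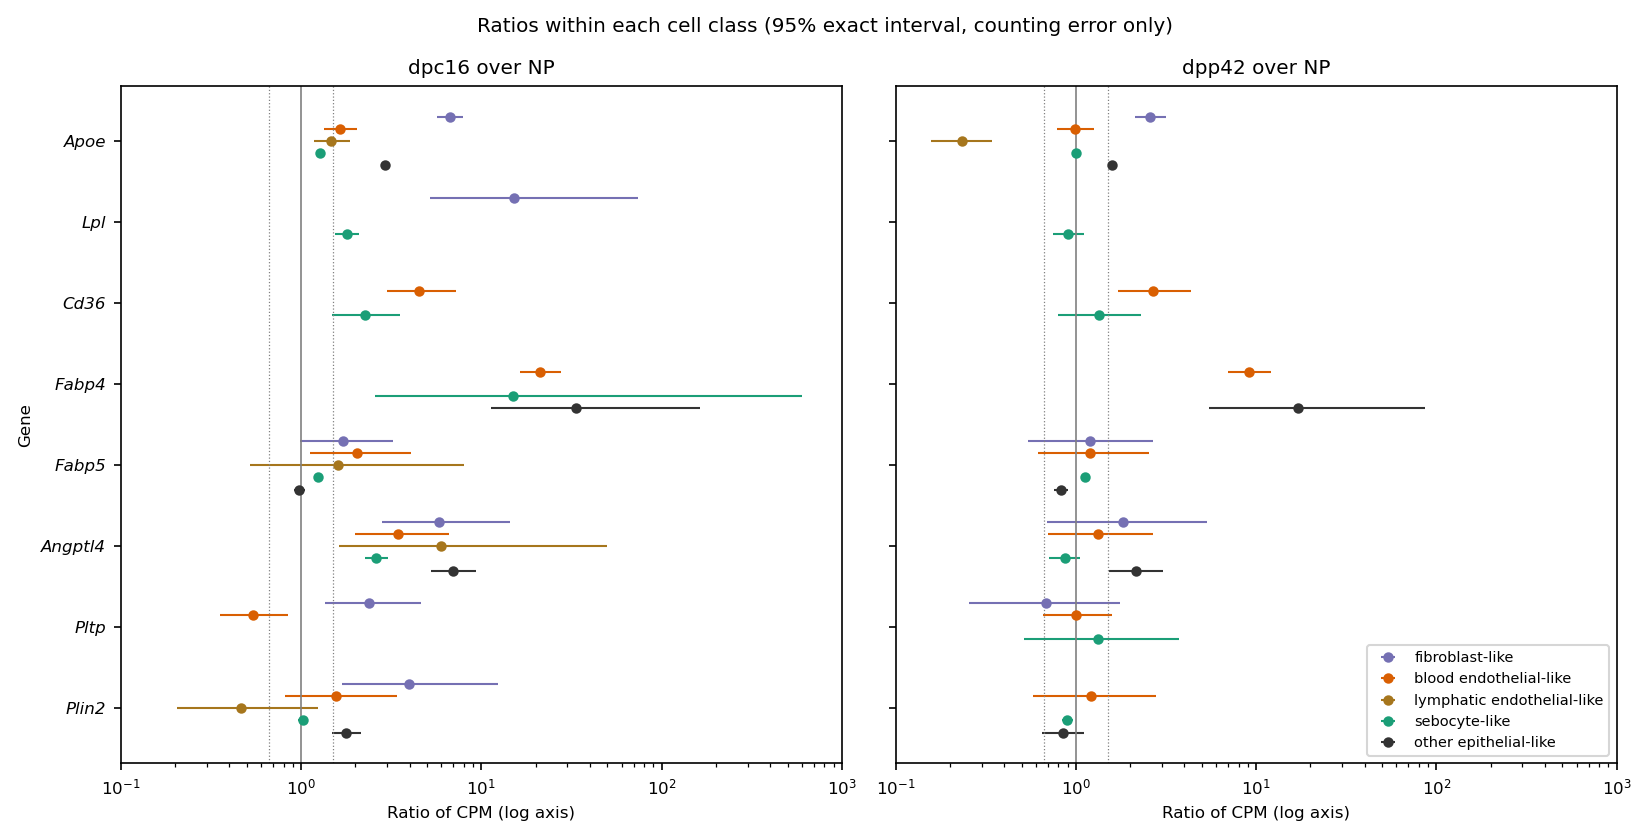
Ratio of CPM (log axis) of each gene to NP in each class, for dpc16 (left) and dpp42 (right), with exact 95% intervals for counting error; the solid line is 1, dotted lines mark the size rule of 1.5 either way, and genes not measured or with no UMI in NP have no point. Points lie mostly to the right of 1 in dpc16 and nearer to 1 in dpp42, with Pltp in blood endothelial-like cells to the left in dpc16.

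Angptl4 was called higher in dpc16 than in NP in all 5 classes, and lower in dpp42 than in dpc16 in all 5. Against NP, in dpp42, it was called in other epithelial-like cells alone. Differences between classes in these ratios were not tested.

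Smaller classes held some of the genes at high levels. Macrophage-like cells (13, 139 and 11 cells), named from a list of macrophage and dendritic cell markers, had Apoe at 597, 4928 and 911 CPM. Of the 12 markers, 10, 12 and 10 were detected in NP, dpc16 and dpp42. C1qb and C1qc had no UMI in NP, and C1qa and C1qc had none in dpp42. The kinds of cell in this class may therefore differ between libraries, and their part in the Apoe levels was not tested. Cluster 29, led by Ccl8, Pf4 and C1q genes and present in dpc16 alone with 62 cells, had Pltp at 446 CPM (360 to 546) and Plin2 at 719 (608 to 843), so the stages cannot be compared for it. Mural-like cells (6, 29 and 8 cells), which wrap vessels, had Fabp4 at 249.4, 3205 and 833 CPM. The NP value rests on 6 UMIs in 2 cells. These levels were 52.0, 31.7 and 19.1% of the blood endothelial-like ones. In the same cells Flt1 was at 0, 4.26 and 0% and Plvap at 0, 2.34 and 4.83%. The most widespread of 4 other blood endothelial markers reached 9.67, 21.8 and 14.3%. The part of blood vessel RNA in this Fabp4 level was not tested. Apoe in mural-like cells had 59, 76 and 10 UMIs, or 2452, 573 and 287 CPM, with dpp42 at 0.12 times NP (0.053 to 0.23). Epithelial markers in these cells were also highest in NP, at a summed 5320, 1961 and 1579 CPM in NP, dpc16 and dpp42. Sebocyte markers summed to 1122, 173 and 258 CPM. The part of such RNA in the Apoe ratio was not tested.

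Whole-library levels also carry the mix of classes. Over all kept cells Pltp was 4.06 times NP in dpc16, but 1.33 times when the dpc16 class levels were weighted by the NP shares of UMIs. The same weighting took Lpl from 3.57 to 2.04 times, Fabp4 from 34.5 to 21.3 times and Angptl4 from 4.52 to 3.62 times. Apoe went the other way, from 1.92 to 2.24 times.

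Of a list of 48 other genes of lipid uptake, esterification, droplets, lipolysis, cholesterol handling and their regulators, blood endothelial-like cells had 5 of 18 measured genes higher and 0 lower in dpc16 than in NP, beside 5.72 and 10.2% of all measured genes. Among them Gpihbp1, the anchor of lipoprotein lipase on capillaries, had 8.27, 305 and 93.7 CPM in NP, dpc16 and dpp42, and was 36.9 times NP in dpc16 (6.54 to 1464, from 1 NP UMI). Pparg, a lipid-sensing receptor, had 8.27 and 53.7 CPM in NP and dpc16. Hilpda, a droplet protein that inhibits lipolysis, had 33.1 and 109 CPM, and the triglyceride lipase gene Pnpla2 24.8 and 85.4 CPM. Pparg, Hilpda and Pnpla2 rest on 1, 4 and 3 NP UMIs. The intervals of their ratios reached down close to 1 (1.09 to 264, 1.23 to 12.4 and 1.12 to 17.2). In dpp42, Pnpla2 was still called, at 84.0 CPM (ratio interval 1.04 to 17.5), and so was Gpihbp1 (1.88 to 463). In lymphatic endothelial-like cells 1 of 19 was higher, Gpihbp1 at 3.90 times NP (2.04 to 8.60), and 1 lower, Apoc1 at 0.37 times (0.23 to 0.60), beside 4.59 and 6.06%. In fibroblast-like cells 2 of 29 were higher and 3 lower in dpc16, beside 6.41 and 15.1%. Slc27a1, a fatty acid transporter, was higher at 27.8 against 4.18 CPM (ratio interval 1.17 to 265, from 1 NP UMI). Ppard and Acsl3 were among the lower ones at 0.29 and 0.45 times NP. In sebocyte-like cells 7 of 33 were higher and 7 lower, beside 6.97 and 14.8%. Acsl1, which activates long-chain fatty acids, was higher at 6.16 times NP (2.93 to 15.5) and Hilpda at 2.63 times (1.78 to 4.02), while Agpat2, an enzyme of glycerolipid synthesis, was lower at 0.32 times. Other epithelial-like cells had 3 of 25 higher and 4 lower, beside 8.45 and 22.9%, with Hilpda at 2.04 times (1.56 to 2.69) and Acsl1 at 0.51 times (0.45 to 0.57). The medians of this list in dpc16 against NP were near 0, from -0.24 to 0.24 on the log2 scale over the 5 classes. In dpp42 against NP, blood endothelial-like cells had 2 of 12 higher and 1 lower, beside 2.62 and 3.44% of all measured genes. Sebocyte-like cells had 1 of 29 higher and 1 lower, beside 3.08 and 2.47%. Other epithelial-like cells had 2 of 26 higher and 1 lower, beside 4.59 and 2.81%. Fibroblast-like cells had 0 of 10 higher and 0 lower, beside 8.77 and 7.88%. Lymphatic endothelial-like cells had 0 of 4 higher and 1 lower, beside 5.13 and 2.97%.

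Across the 16 sums of a class and library with at least 30 cells, the genes most like each member were ranked by Pearson's r on log2(CPM + 20) among 6138 genes. These sums share libraries and their depth, so r is a description. Cd36 and Fabp4 had an r of 0.90 with each other. The closest genes to Fabp4 were Rbp7 (0.95), a retinol-binding gene of capillaries, Sorbs2 and Pcdh17. Pank1 and Hacd2 (both 0.98) were among the genes closest to Fabp5. Plin2 was closest to Ldhb (0.94), Lpl to Mgst1 (0.90), a sebocyte marker, Apoe to Pgls (0.93) and Krt14 (0.92), and Pltp to Mndal (0.93) and Ifi203 (0.91), genes of the interferon-inducible family. Angptl4 had the weakest closest gene, Mgll at 0.79, the monoglyceride lipase.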

How the data were processed

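Dermal cells were profiled with 10x Chromium version 2 chemistry, and the authors deposited UMI counts per gene and barcode without normalization, made with Cell Ranger 2.2.0 on mm10 (GRCm38) per the submitters' processing notes. No annotation release or cell calling setting was found in the labels. The files held 6031814, 21679047 and 5794940 UMIs in 1330, 4122 and 1196 barcodes for NP, dpc16 and dpp42. Barcodes with at least 200 genes and at most 10% mitochondrial UMIs were kept (6022 of 6648). Scrublet marked 4 cells, under 0.5%, and no doublets were removed. A share this low does not show that mixed cells were absent, and their part in the levels was not tested. Cells were clustered without the 8 genes (scanpy 1.11.5, 2000 variable genes, 30 components, 15 neighbours, Leiden at resolution 1) and named from 13 marker lists, with no more than a marker-based name meant by "-like". Cluster 2 (23, 232 and 16 cells in NP, dpc16 and dpp42) stayed unnamed. It passed 14 epithelial markers, but its leading genes held more genes of another list (Hbb-bs and Hba-a2, haemoglobin genes). Its cells are therefore missing from the other epithelial-like class, and in dpc16 they held 5.92% of the Apoe UMIs of the library. UMIs were summed per class and library. Ratios have exact conditional binomial 95% intervals. Free RNA was gauged by 4 markers each of epithelial, fibroblast, blood endothelial and sebocyte cells: their level in another class as a percentage of the source class. Named genes were the 8 members, up to 4 called genes of the 48 per class and comparison with the largest log2 ratio, and the 3 genes most like each member. Some genes that this rule names are not reported here. The members and lists were chosen with earlier results of these data known. The alternatives tried were other mitochondrial limits, cluster resolutions, per-library and per-cell classes, centring, minimums, thinning, equal cluster weights and size rules.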

Additional observations from a re-analysis of the deposited data

Results flagged for a closer look

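Some genes stood on opposite sides of the same comparison in different classes. These differences between classes were not tested. Pltp in dpc16 was 2.39 times NP in fibroblast-like cells and 0.54 times NP in blood endothelial-like cells. In dpp42 against dpc16, Pltp was 1.86 times in blood endothelial-like and 2.55 times in sebocyte-like cells, and 0.29 times in fibroblast-like cells. The sebocyte-like value rests on 13 and 18 UMIs. The endothelial dpc16 value was not called with classes taken cell by cell (log2 ratio -0.61). Pltp overlaps Ctsa on the other strand. Apoe in dpp42 was 2.58 times NP in fibroblast-like and 1.58 times NP in other epithelial-like cells, and 0.23 times NP in lymphatic endothelial-like cells. The fibroblast-like value was not called at resolution 2 or with each library clustered alone (log2 ratios of 0.54 and 0.52). The epithelial value falls under the size rule without cluster 19, and the lymphatic value rests on 19 NP cells.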

How the results depend on the processing

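No paired analysis was possible because each stage has 1 library, and no replicate could be left out for the same reason. Alternative settings were run for fibroblast-like, blood endothelial-like, sebocyte-like and other epithelial-like cells, in the comparisons with NP. Lymphatic endothelial-like cells and dpp42 against dpc16 were not put through them. Of 86 counts of called members under alternative settings, 78 stayed within 1.5 times the main count. In fibroblast-like cells, dpp42 against NP gave 0 called members with clusters at resolution 2, 0 with each library clustered alone and 2 with no minimum on CPM or UMIs, against 1. In blood endothelial-like cells, dpp42 against NP gave 1 with cells thinned to 1000 UMIs, against 2. In sebocyte-like cells, dpc16 against NP gave 1 with at most 5% mitochondrial UMIs and 1 with thinning, against 4, and dpp42 against NP gave 1 with at most 5% mitochondrial UMIs, against 0. In other epithelial-like cells, dpc16 against NP gave 7 with no minimum, against 4. Of 528 alternative ratios of single genes, 442 stayed within the interval of the main ratio and 85 moved. Lpl in sebocyte-like cells reversed, to a log2 ratio of -0.0894 in dpc16 against NP at 5% mitochondrial UMIs. With classes taken cell by cell from markers, 7 members were higher and 0 lower in dpc16 blood endothelial-like cells, with Pltp uncalled at a log2 ratio of -0.61, against -0.90. The causes were not tested. Classes with few NP cells limit the depth of every comparison with NP.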
